A study of Mus musculus with 12 samples.

Results

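The ubiquitin and proteasome genes described here are the 148 genes, of 9984 genes with a value, whose symbols begin with the stems of 26S proteasome subunits and their helpers (Psma to Psmg), ubiquitin activating and conjugating enzymes (Uba, Ube), cullins (Cul), F-box proteins (Fbxl, Fbxo, Fbxw) and deubiquitinases (Usp, Uch, Otu). Usp18, an interferon-induced protease that acts on ISG15, was left out by the rule. The rule read gene symbols and not measured values, and each gene was represented by its brightest probe set. In the RefSeq gene table of GRCm38.p6 276 symbols fit the same rule, so 148 of these have a value here, and 22 of 46 Psma to Psmd symbols do. The others are not analysed here. Symbol stems also bring in a few genes that are not enzymes or subunits, namely the antisense genes Fbxl12os and Usp46os2, the GTPase-activating protein Usp6nl and the PA28-gamma-interacting Psme3ip1.

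RNA of sorted bone marrow cells from male C57Bl/6 mice was measured on 12 Affymetrix arrays, with 3 arrays in each of 4 groups. Erg -/- MPP were multipotent progenitors from animals in which floxed exon 11 of Erg, which encodes part of its DNA-binding domain, had been removed by Mx1-Cre, a Cre switched on by interferon. Erg fl/fl MPP carried the floxed alleles without Cre, and the mice of both MPP groups were given pIpC, an interferon-inducing double-stranded RNA, 5 times, with sorting 2 weeks after the first injection. Erg +/- HSC were haematopoietic stem cells with 1 Erg allele deleted in the whole animal through a general Cre deleter cross, and Erg +/+ HSC were their wild-type counterparts. The labels give no pIpC for the HSC groups, and give backcrossing for at least 6 generations. HSC were gated as Lin-, Sca-1+, c-kit+, CD150+ and CD48-, and the labels of the MPP samples disagree, since their sorting field gives CD150- and their source field repeats the HSC gate. Population, gate and pIpC treatment therefore cannot be told apart wherever MPP are set against HSC. Between the MPP groups, deletion of Erg and the presence of Cre cannot be told apart. Erg, an ETS transcription factor needed by stem cells, is not analysed here, so the deletion was not checked in these values. Mx1-Cre also acts in many cell types besides blood cells, and whether each replicate was a separate animal is not stated, so p-values reflect the spread of these samples, which may be technical.

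Ubiquitin is activated by an E1 enzyme, passed to an E2 conjugating enzyme and placed on a target with the help of an E3 ligase. The cullin-RING ligases are the largest family of E3 ligases, and those built on Cul1, the SCF ligases, use F-box proteins to choose targets. Chains of ubiquitin send a protein to the 26S proteasome, in which a 19S cap of ATPases and other subunits unfolds it and a 20S barrel of alpha and beta rings cuts it, while deubiquitinases take ubiquitin off again. In blood stem cells the pathway is known for control of the cell cycle, Fbxw7 being a known keeper of quiescence, and interferon is known to exchange barrel subunits for those of the immunoproteasome.

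The arrays were comparable in median level. Markers of the populations come from lists chosen with earlier results of these data known, so they are no independent check of the sorts. Array medians lay between 5.41 and 5.54 on the log2 scale, and interquartile ranges between 2.50 and 2.84 in MPP arrays and between 2.83 and 2.99 in HSC arrays. Of HSC-associated markers 5 of 10 were measured, and of markers of lymphoid-primed progenitors 4 of 7. In Erg fl/fl MPP against Erg +/+ HSC all 5 were lower and all 4 higher (limma, adjusted p under 0.05 for each). The sort antigens themselves are not analysed here. In Erg -/- MPP against Erg fl/fl MPP limma called 8 of 9984 genes, all lower. The marker genes among them were Ifitm1 of the HSC list, Igll1 and Vpreb1 of the lymphoid-primed list, Nkg7 of granulocytes and Mcpt8 of basophils. All 7 measured erythroid markers had positive differences in both Erg comparisons and between the controls. Their median was 0.40 in Erg -/- MPP minus Erg fl/fl MPP, where 49.4% of all genes were positive. There 1 marker had an unadjusted p under 0.05. The median was 0.29 in Erg fl/fl MPP minus Erg +/+ HSC, where 62.4% of all genes were positive. In Erg +/- HSC minus Erg +/+ HSC it was 0.97, where 53.8% of all genes were positive. In this HSC comparison 4 of the 7 markers had an unadjusted p under 0.05, against 6.32% of all genes, with 0 called by limma. In the same comparison all 4 measured endothelial and stromal markers were negative, with a median of -1.21, 3 of them at an unadjusted p under 0.05, and Sparc was called lower in Erg +/- HSC, at -2.08 (SE 0.285, limma adjusted p = 0.0401). The part of these markers in the values of the members was not tested. In bulk samples, fewer cells of a type and less RNA per cell cannot be told apart. Erg fl/fl MPP replicate 1 stood apart for the proteasome subunits, as described below.

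The members were mostly well-measured genes. Their median level was 7.18 log2 units, against 5.81 for all genes, and 104 of 148 lay above the median gene and 22 below the 25th percentile. Between any pair of groups, the 95% interval of a member's difference reached a median of 0.504 log2 units to either side. In Erg -/- MPP minus Erg fl/fl MPP the interval lay wholly within 1 log2 unit of no change for 127 of 148 members, and in Erg +/- HSC minus Erg +/+ HSC for 122 of 148. Smaller differences could not be resolved with 3 arrays a group.

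Loss of Erg moved no member past the threshold in either population. In Erg -/- MPP against Erg fl/fl MPP, limma called 0 of 148 members at an adjusted p under 0.05, beside 0.0801% of all genes. At an unadjusted p under 0.05 there were 6 members, or 4.05%, against 4.79% of all genes. In Erg +/- HSC against Erg +/+ HSC it again called 0 of 148, beside 0.02% of all genes, with 7 members, or 4.73%, at an unadjusted p under 0.05 against 6.32% of all genes. The members' shares lay below those of all genes. Groups did not overlap for 14 members, or 9.46%, in the MPP comparison against 10.5% of all genes, and 12 members, or 8.11%, in the HSC comparison against 10.4%. The median difference of the members was -0.0438 in MPP and -0.0011 in HSC, against -0.0040 and 0.0241 over all genes.

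Between the control populations, Erg fl/fl MPP against Erg +/+ HSC, limma called 1 of 148 members, which is 0.676% beside 1.28% of all genes in either direction and 0.631% called lower. This gene was Fbxl12, lower in MPP. Another 31 members had an unadjusted p under 0.05 without passing the adjustment, which with Fbxl12 makes 32, or 21.6%, against 22.3% of all genes. Groups did not overlap for 37 members, 25% of the list, against 27% of all genes. Over both MPP groups against both HSC groups, limma called 0 members beside 0.3% of all genes, with 36 members, or 24.3%, at an unadjusted p under 0.05 against 31.7% of all genes. This comparison shares its arrays with the others, so their values are given side by side and not as support for each other.

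**Figure D1:**
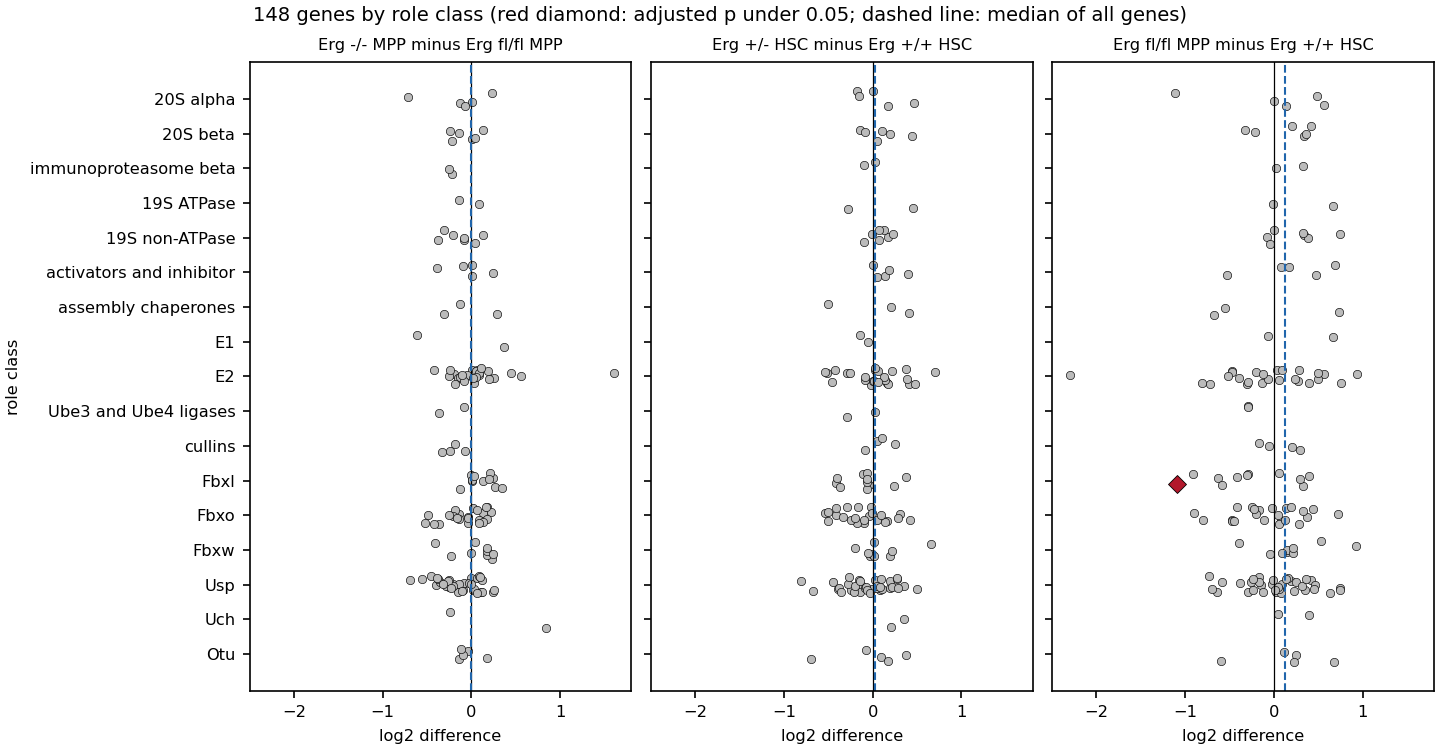
Log2 difference of each of the 148 members, by role class, in Erg -/- MPP minus Erg fl/fl MPP, in Erg +/- HSC minus Erg +/+ HSC, and in Erg fl/fl MPP minus Erg +/+ HSC. Each point is a gene, the dashed line is the median of 9984 genes, and the red diamond marks Fbxl12, the only called member, at -1.09 in the comparison of the controls.

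Fbxl12 encodes an F-box protein with leucine-rich repeats that acts as the target-choosing part of an SCF ligase. Its values were 6.02, 6.55 and 5.98 log2 units in Erg -/- MPP, 6.10, 6.00 and 5.66 in Erg fl/fl MPP, 6.72, 6.51 and 6.57 in Erg +/- HSC, and 7.43, 6.66 and 6.94 in Erg +/+ HSC. All 3 Erg fl/fl MPP arrays lay below all 3 Erg +/+ HSC arrays, and 5 of the 6 MPP arrays lay below every HSC array. The means were 5.92 ± 0.23 in Erg fl/fl MPP and 7.01 ± 0.39 in Erg +/+ HSC (SD, n = 3 each), a difference of -1.09 log2 units with a SE of 0.226, or 2.13-fold lower in MPP (limma, adjusted p = 0.0370, 95% interval -1.58 to -0.60). Over both groups of each population the difference was -0.75 with a SE of 0.160 and missed the threshold (limma, adjusted p = 0.0613). Neither Erg comparison gave a called difference for Fbxl12. The difference was 0.26 in MPP and -0.41 in HSC, and the MPP effect minus the HSC effect was 0.68 with a SE of 0.319 (limma, unadjusted p = 0.055).

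The call for Fbxl12 depended on single arrays and on the genes tested. Its adjusted p ranged from 0.0258 to 0.121 over 17 alternatives, and its difference from -1.27 to -0.88. The call was lost on leaving out Erg fl/fl MPP replicate 2 (adjusted p = 0.0988) or 3 (0.121), or Erg +/+ HSC replicate 1 (0.0907) or 3 (0.0721), and kept without Erg fl/fl MPP replicate 1 (0.0495). It was also lost with only the arrays compared (0.0849) and with all deposited probe sets in the adjustment (0.113). The antisense gene Fbxl12os lies at the same locus, and how far these arrays separate the strands was not tested. Its values were 4.03, 4.34 and 4.54 in Erg fl/fl MPP and 4.79, 4.86 and 4.13 in Erg +/+ HSC, and these overlap. Beside the difference in Fbxl12, the stromal marker Sparc was also called lower in Erg fl/fl MPP than in Erg +/+ HSC and the cell cycle kinase Plk1 called higher, at 2.24 log2 units (SE 0.466, limma adjusted p = 0.0375). Their part in the result was not tested.

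Promoter windows of 3 members are printed here because these genes have the called difference (Fbxl12), the widest range between groups (Ube2q2) and the smallest p of a 19S subunit in the HSC comparison (Psmc1). Each runs from 250 bases before to 50 bases after the annotated start in RefSeq's GRCm38.p6, 5′ to 3′ on the gene's strand. Capitals mark CCGGAA on either strand, the core that ETS factors such as Erg are known to prefer, which reads TTCCGG on the other strand. The Fbxl12 window, at chr9:20644718-20645017 on the minus strand, holds 2 matches on the other strand, from 5 bases before the start to the start itself and from 2 to 7 bases after it. The Ube2q2 window, at chr9:55149119-55149418 on the plus strand, holds 0. The Psmc1 window, at chr12:100109952-100110251 on the plus strand, holds 1, from 27 to 22 bases before the start.
Fbxl12: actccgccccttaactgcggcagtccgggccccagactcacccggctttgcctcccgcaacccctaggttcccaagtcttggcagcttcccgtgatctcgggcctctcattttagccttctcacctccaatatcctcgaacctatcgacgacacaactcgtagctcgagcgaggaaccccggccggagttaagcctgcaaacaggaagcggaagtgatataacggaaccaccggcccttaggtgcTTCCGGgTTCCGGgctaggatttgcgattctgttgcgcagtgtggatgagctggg
Ube2q2: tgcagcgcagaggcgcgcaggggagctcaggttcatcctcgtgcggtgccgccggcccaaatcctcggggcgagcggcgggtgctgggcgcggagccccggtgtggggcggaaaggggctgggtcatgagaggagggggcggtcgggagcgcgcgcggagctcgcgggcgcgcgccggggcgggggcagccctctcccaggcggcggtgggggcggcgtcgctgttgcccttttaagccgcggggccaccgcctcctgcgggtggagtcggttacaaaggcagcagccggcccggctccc
Psmc1: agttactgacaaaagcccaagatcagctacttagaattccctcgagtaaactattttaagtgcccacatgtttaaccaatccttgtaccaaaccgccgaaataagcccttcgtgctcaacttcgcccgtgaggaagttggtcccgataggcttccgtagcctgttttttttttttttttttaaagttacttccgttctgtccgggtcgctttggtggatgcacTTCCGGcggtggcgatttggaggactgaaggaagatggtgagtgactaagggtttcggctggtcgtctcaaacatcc
A second annotated start of Fbxl12, at chr9:20642757-20643056, and one of Ube2q2, at chr9:55149833-55150132, hold 0 matches each. CCGGAA, searched on both strands, occurred in 14.9% of all 32851 promoter windows, in 46 of 154 windows of members, or 29.9%, and in 9 of 17 windows of Psma to Psmd subunits, or 52.9%. The 154 windows belong to 123 members, of which 42 have a match. TGANTCAGC, a motif of the kind bound by NRF factors, which are known to drive proteasome genes, was searched on both strands too and occurred in 1.19% of all windows, in 3 windows of members and in 1 of a subunit, Psmb5. These matches describe letters in the windows only, and binding was not tested. No member, with or without a match, passed the test in either Erg comparison, so matches could not be related to an Erg difference.

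Ube2q2, an E2 conjugating enzyme, had the widest range of group means of any member, on a dim probe set. Its values were 4.28, 4.07 and 4.77 in Erg -/- MPP, 2.84, 3.72 and 1.75 in Erg fl/fl MPP, 4.50, 5.63 and 4.83 in Erg +/- HSC, and 5.66, 5.53 and 4.02 in Erg +/+ HSC. All 3 Erg fl/fl MPP arrays lay below the arrays of the other groups, with an SD of 0.98 beside 0.91 in Erg +/+ HSC. The means were 4.38 ± 0.36 in Erg -/- MPP and 2.77 ± 0.98 in Erg fl/fl MPP (SD, n = 3 each), a difference of 1.61 with a SE of 0.511 that was not called (limma, adjusted p = 0.918). Erg fl/fl MPP minus Erg +/+ HSC was -2.30 with a SE of 0.511 and missed the threshold (limma, adjusted p = 0.0505), and the adjusted p lay between 0.0223 and 0.152 over 15 alternatives. The level of the gene, a mean of 4.30 over 12 arrays, lies below 4.69, the 25th percentile of all genes.

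**Figure D2:**
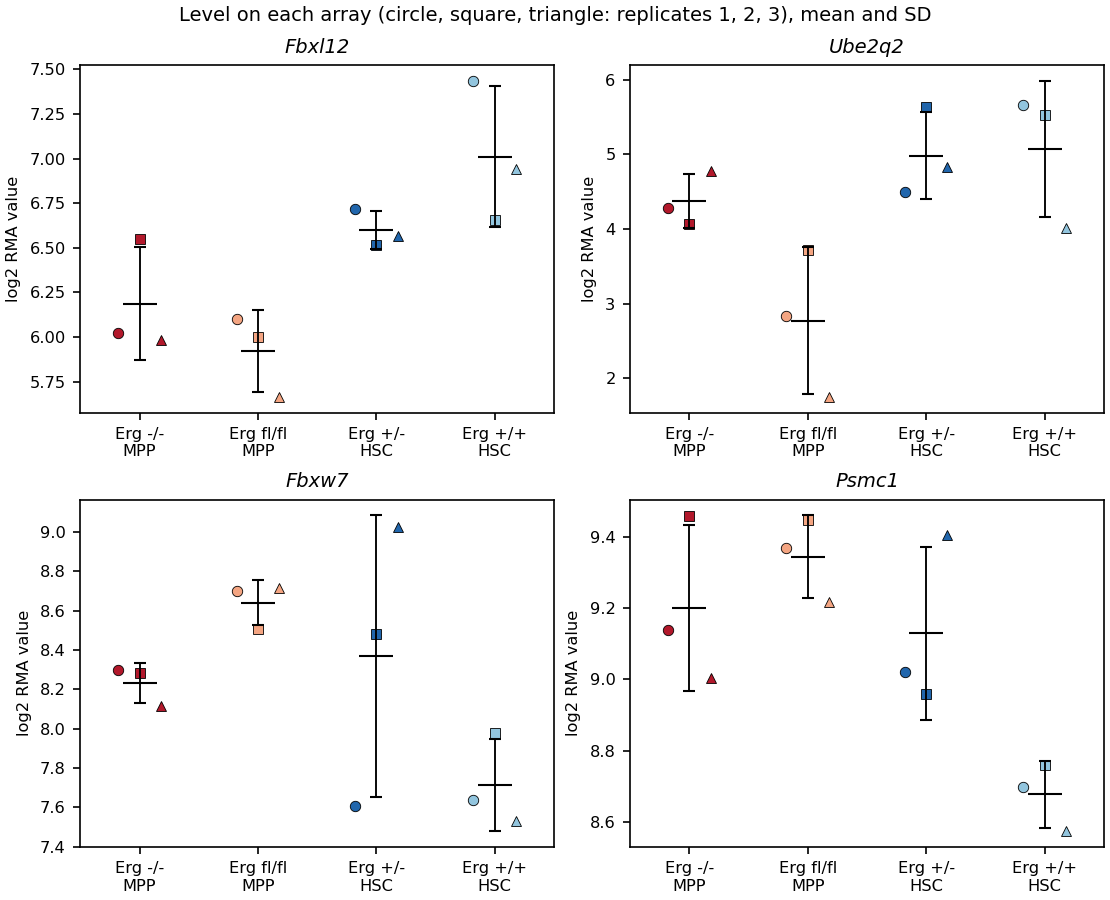
Log2 RMA values of Fbxl12, Ube2q2, Fbxw7 and Psmc1 on each of the 12 arrays, with group mean and SD. For Fbxl12, 5 of the 6 MPP arrays lie below every HSC array, Ube2q2 is lowest in Erg fl/fl MPP (1.75 to 3.72), Fbxw7 spreads from 7.60 to 9.02 in Erg +/- HSC, and Psmc1 is lowest in Erg +/+ HSC (8.57 to 8.76).

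The 22 measured genes with the stems Psma to Psmd, of the 20S barrel, its inducible form and the 19S cap, are called subunits here, although Psmd9 and Psmd10 are known as chaperones of cap assembly. Of these limma called 0 in any comparison. At an unadjusted p under 0.05 there were 2 of 22 in Erg +/- HSC against Erg +/+ HSC, beside 6.32% of all genes. In Erg -/- MPP against Erg fl/fl MPP there were 0, beside 4.79%, and between the controls 3, beside 22.3%. The control groups did not overlap for 7 of 22 subunits, all higher in MPP, where 18.5% of all genes were higher without overlap and 8.54% lower. Psmb6, the caspase-like catalytic subunit of the barrel, averaged 9.57 in Erg -/- MPP, 9.81 in Erg fl/fl MPP, 9.52 in Erg +/- HSC and 9.61 in Erg +/+ HSC. Psmd6, a structural subunit of the lid of the cap, averaged 9.37, 9.33, 9.33 and 9.33 in the same order of groups. The interval of the difference lay within 1 log2 unit of no change for 20 of 22 subunits in the MPP comparison and 19 of 22 in the HSC comparison.

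The 2 subunits with a small p in the HSC comparison were Psma5 and Psmc1. Psma5, an alpha subunit of the barrel, had 10.35, 10.59 and 10.33 in Erg +/- HSC against 10.02, 9.94 and 9.89 in Erg +/+ HSC. The groups did not overlap, and the difference was 0.47 with a SE of 0.172 (limma, adjusted p = 0.740). Psmc1, an ATPase of the cap, had 9.02, 8.96 and 9.41 in Erg +/- HSC against 8.70, 8.76 and 8.57 in Erg +/+ HSC, a difference of 0.45 with a SE of 0.177 (limma, adjusted p = 0.774). A second probe set of Psmc1 gave 0.02 for the same comparison, so the probe sets disagree. In Erg fl/fl MPP minus Erg +/+ HSC, which uses the same control arrays, Psmc1 differed by 0.67 (limma, adjusted p = 0.0830) and by 0.31 on the second probe set.

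The widest differences of subunits lay between the populations and were not called. They were picked as the ends of their classes after their values were seen. Psma3, an alpha subunit, averaged 6.88 ± 0.40 in Erg fl/fl MPP and 8.00 ± 0.75 in Erg +/+ HSC (SD, n = 3 each), a difference of -1.12 with a SE of 0.429 (limma, adjusted p = 0.163). Psmd10, known as gankyrin and 1 of those chaperones, averaged 9.04 ± 0.70 in Erg fl/fl MPP and 8.30 ± 0.38 in Erg +/+ HSC, a difference of 0.74 with a SE of 0.348 (limma, adjusted p = 0.231). Their arrays overlapped between these groups, and neither passed the test.

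As a group the subunits stood highest on 1 array. In Erg fl/fl MPP replicate 1 the median subunit lay 0.37 log2 units above its own mean over 12 arrays, against 0.02 and -0.13 in the other Erg fl/fl MPP arrays and between -0.15 and 0.13 in the arrays of the other 3 groups. This array was the highest of its group for 19 of 22 subunits and for 85 of 148 members, or 57.4%, against 36.8% of all genes. Its interquartile range over all probe sets was 2.84, against 2.53 and 2.58 in the other Erg fl/fl MPP arrays. After a repeated quantile normalisation it was highest for 14 of 22 subunits but for only 56 of 148 members, and the median subunit lay 0.16 above. Relative to the median of all genes, the median subunit difference was -0.10 in Erg -/- MPP minus Erg fl/fl MPP and 0.14 in Erg fl/fl MPP minus Erg +/+ HSC. Without that array these values were -0.01 and -0.05, and without Erg fl/fl MPP replicate 3 instead they were -0.21 and 0.21. In Erg +/- HSC minus Erg +/+ HSC, which uses neither array, the value was 0.03.

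**Figure D3:**
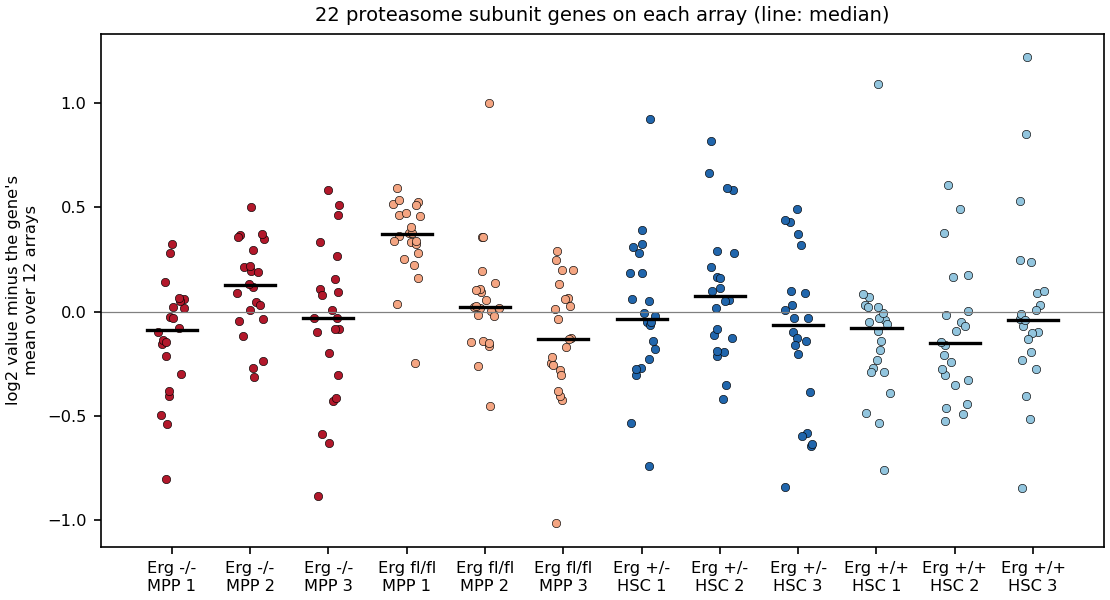
Each point is one of 22 proteasome subunits on an array, as the log2 difference from that subunit's mean over 12 arrays, with a line at the median of each array. The median is 0.37 in Erg fl/fl MPP replicate 1 and between -0.15 and 0.13 in the other 11 arrays.

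None of the 3 assembly chaperones was called. Psmg1, which with Psmg2 forms the chaperone that starts the alpha ring, averaged 8.36 in Erg -/- MPP, 8.49 in Erg fl/fl MPP, 8.17 in Erg +/- HSC and 7.76 in Erg +/+ HSC, and Psmg2 averaged 7.83, 7.55, 8.42 and 8.22. Erg fl/fl MPP minus Erg +/+ HSC was 0.73 for Psmg1 (SE 0.287, limma adjusted p = 0.171) and -0.67 for Psmg2 (SE 0.344, limma adjusted p = 0.266). The partners of 1 chaperone thus had differences of opposite sign, neither called. Psmg2 was chosen after its values were seen. Without Erg fl/fl MPP replicate 1, its difference over both populations, -0.85 in MPP minus HSC, was called (limma, adjusted p = 0.0401), against -0.63 and an adjusted p of 0.115 with all arrays.

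The inducible proteasome genes Psmb8 and Psmb9, catalytic subunits of the immunoproteasome, and Psme1 and Psme2, the subunits of the PA28 activator, did not pass the test in any comparison. Psmb10, the remaining catalytic subunit of this form, is not analysed here. Psmb8 was 9.07, 9.29 and 9.00 in Erg -/- MPP, 9.63, 9.10 and 9.30 in Erg fl/fl MPP, 8.57, 8.99 and 9.20 in Erg +/- HSC, and 9.05, 9.01 and 9.00 in Erg +/+ HSC. Psmb9 was 10.31, 11.14 and 10.54 in Erg -/- MPP, 11.17, 10.70 and 10.88 in Erg fl/fl MPP, 11.17, 10.77 and 10.82 in Erg +/- HSC, and 10.88, 11.01 and 10.78 in Erg +/+ HSC. Every pair of these groups overlapped for Psmb9, and Psmb8 was higher on all Erg fl/fl MPP arrays than on all Erg +/+ HSC arrays. Erg -/- MPP minus Erg fl/fl MPP was -0.22 for Psmb8, with an interval of -0.65 to 0.20, and -0.25 for Psmb9, with an interval of -0.73 to 0.23. Without Erg fl/fl MPP replicate 1 these values were -0.08 and -0.12, and without Erg -/- MPP replicate 1 the Psmb9 value was -0.07.

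PA28 opens the gate of the barrel. Psme1 was between 10.25 and 10.42 in Erg -/- MPP, 10.33 and 10.58 in Erg fl/fl MPP, 10.21 and 10.43 in Erg +/- HSC, and 10.03 and 10.44 in Erg +/+ HSC. Psme2 had 8.04, 7.67 and 8.12 in Erg -/- MPP, 8.77, 8.01 and 8.21 in Erg fl/fl MPP, 8.13, 7.89 and 8.10 in Erg +/- HSC, and 8.16, 7.37 and 7.38 in Erg +/+ HSC. The ranges overlapped in each comparison. Psme2 differed by 0.69 in Erg fl/fl MPP minus Erg +/+ HSC (limma, adjusted p = 0.150), by -0.39 in Erg -/- MPP minus Erg fl/fl MPP and by 0.40 in Erg +/- HSC minus Erg +/+ HSC. Without Erg fl/fl MPP replicate 1, the array that also stood apart for the subunits, the Psme2 values were 0.47 between the controls and -0.17 for the MPP comparison. In HSC the Psme2 value was 0.66 without Erg +/+ HSC replicate 1 and 0.26 without Erg +/+ HSC replicate 2. The MPP effect minus the HSC effect was -0.79 for Psme2, with an unadjusted p of 0.0475 from limma and an adjusted p of 1.00, and -0.12, -0.28 and -0.15 for Psmb8, Psmb9 and Psme1, where leaving out Erg fl/fl MPP replicate 1 gave 0.02, -0.15 and -0.08.

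Both MPP groups had received an interferon inducer, so the level of other interferon-induced genes is given beside these values. A list of 32 such genes had 11 measured, and their mean level was 6.93 to 7.03 in Erg -/- MPP, 6.88 to 6.93 in Erg fl/fl MPP, 7.04 to 7.48 in Erg +/- HSC and 7.33 to 7.42 in Erg +/+ HSC. All Erg fl/fl MPP arrays lay below all Erg +/+ HSC arrays on this mean. By gene, 3 of 11 were higher and 8 lower in Erg fl/fl MPP, where 62.4% of all genes were higher. At an unadjusted p under 0.05 from limma, 1 was higher and 5 lower, against 14.4% and 7.91% of all genes, with 0 called. Ifit3, an antiviral protein, had the smallest p, at -1.35 (SE 0.335, limma adjusted p = 0.0729). In the same comparison the immunoproteasome genes, all uncalled, had positive values. Psmb8, Psme1 and Psme2 differed by 0.32, 0.17 and 0.69, and Psmb9 by 0.03, a sign that turned under repeated quantile normalisation and median centring. Without Erg fl/fl MPP replicate 1 the Psmb8, Psme1, Psme2 and Psmb9 values were 0.18, 0.11, 0.47 and -0.10.

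**Figure D4:**
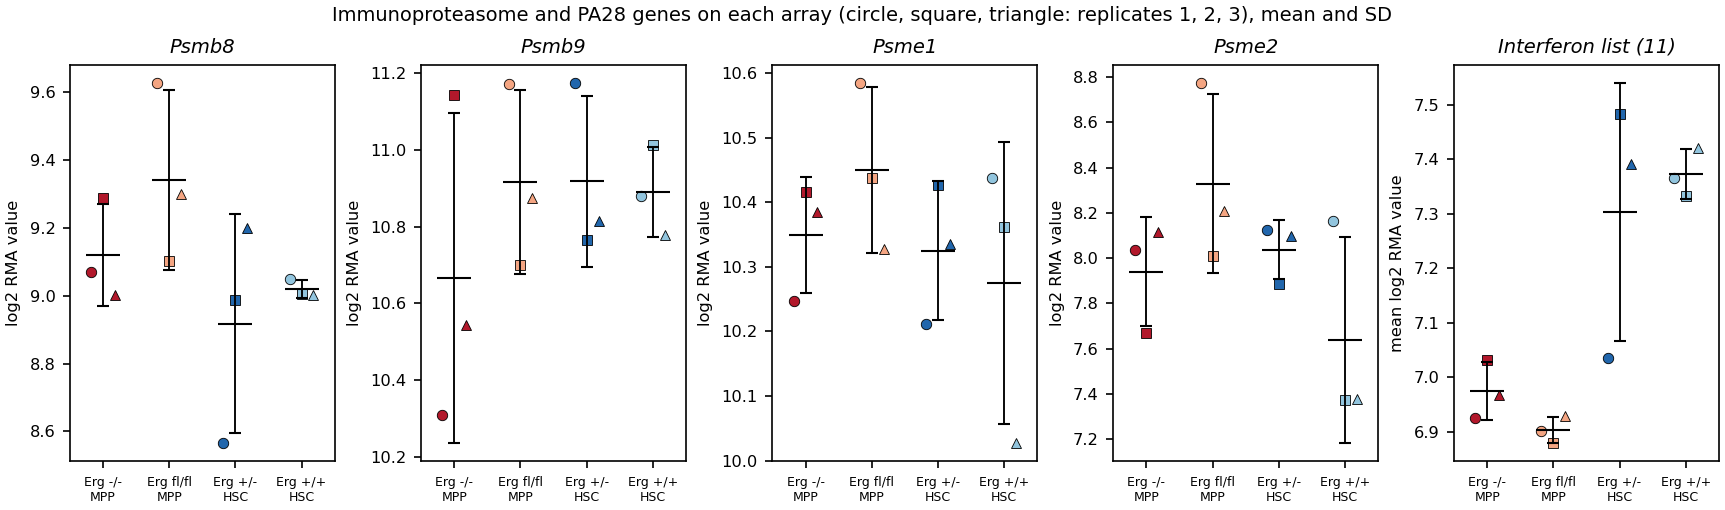
Log2 RMA values of Psmb8, Psmb9, Psme1 and Psme2 on each array, and the mean of 11 interferon-induced genes, with group mean and SD over 3 arrays. The proteasome genes overlap between most groups, whereas the interferon mean is 6.88 to 6.93 in Erg fl/fl MPP and 7.33 to 7.42 in Erg +/+ HSC.

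Among genes with the stems of activating and conjugating enzymes, limma called 0 of 27 in any comparison. At an unadjusted p under 0.05 there were 3, or 11.1%, in the MPP comparison against 4.79% of all genes, 1, or 3.7%, in the HSC comparison against 6.32%, and 6, or 22.2%, between the controls against 22.3%. Uba3, the catalytic subunit of the E1 for NEDD8, the ubiquitin-like protein that switches cullins on, had 8.71, 8.56 and 8.18 in Erg -/- MPP against 9.32, 8.91 and 9.04 in Erg fl/fl MPP. The groups did not overlap, and the difference was -0.61 with a SE of 0.223 (limma, adjusted p = 0.998). Ube2b, an E2 that works with RAD18 and RNF20 in DNA repair and histone ubiquitination, had 8.86, 8.22 and 8.68 in Erg -/- MPP against 9.20, 8.78 and 9.03 in Erg fl/fl MPP, overlapping, at -0.42 with a SE of 0.186, and at -0.23 without Erg -/- MPP replicate 2. Ube2d3, a general-purpose E2, averaged 11.69, 11.60, 11.42 and 11.36 in Erg -/- MPP, Erg fl/fl MPP, Erg +/- HSC and Erg +/+ HSC.

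In the HSC comparison Ube2l3, which serves HECT and RBR ligases, had the smallest p among the brightest probe sets of the E2 genes. It had 10.78, 10.29 and 10.76 in Erg +/- HSC against 10.02, 10.07 and 10.32 in Erg +/+ HSC, a difference of 0.47 with a SE of 0.190 that was not called. Ube2v2, the catalytically inactive partner of Ube2n, had 9.06, 8.59 and 8.60 in Erg -/- MPP, 8.94, 8.71 and 8.27 in Erg fl/fl MPP, 8.53, 8.25 and 8.07 in Erg +/- HSC, and 8.20, 7.82 and 7.66 in Erg +/+ HSC. Over both MPP groups it stood 0.61 above both HSC groups with a SE of 0.160 (limma, adjusted p = 0.0779), and its second probe set gave 0.78. Ube2n itself differed between its used and its second probe set, at -0.13 and -0.82 in Erg fl/fl MPP minus Erg +/+ HSC. In Erg +/- HSC minus Erg +/+ HSC the values were -0.25 and -0.71 (limma, unadjusted p = 0.0042 on the second). For the MPP effect minus the HSC effect they were 0.07 and 0.90 (limma, unadjusted p = 0.0085 on the second). The probe sets thus disagree.

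Of 47 genes with cullin and F-box stems, limma called Fbxl12 alone, between the controls, where 11, or 23.4%, had an unadjusted p under 0.05 against 22.3% of all genes. The 4 measured cullins all had negative differences in Erg -/- MPP minus Erg fl/fl MPP, between -0.33 for Cul2 and -0.07 for Cul4b, and 0 of the 4 had an unadjusted p under 0.05. Over all genes 49.4% of differences were positive in this comparison. Cul1, the scaffold of SCF ligases, averaged 8.90 in Erg -/- MPP, 9.15 in Erg fl/fl MPP, 8.99 in Erg +/- HSC and 8.94 in Erg +/+ HSC. Of 11 genes with the Fbxl stem, 4 had positive differences in Erg fl/fl MPP minus Erg +/+ HSC, where 62.4% of all genes did, with a median of -0.31 against 0.12 over all genes, while 9 of 11 were positive in Erg -/- MPP minus Erg fl/fl MPP, with a median of 0.13. These comparisons share the Erg fl/fl MPP arrays. Fbxl15, a ligase part for SMURF proteins, had 6.93, 6.91 and 6.68 in Erg -/- MPP against 6.58, 6.34 and 6.57 in Erg fl/fl MPP, at 0.34 with a SE of 0.152 and without a call.

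Fbxw7 marks cyclin E, Notch and other growth regulators for degradation. Among the members' brightest probe sets it had the smallest p for the difference of the Erg effects. It had 8.30, 8.28 and 8.12 in Erg -/- MPP, 8.70, 8.51 and 8.71 in Erg fl/fl MPP, 7.60, 8.48 and 9.02 in Erg +/- HSC, and 7.64, 7.98 and 7.53 in Erg +/+ HSC. The 3 Erg -/- MPP arrays lay below the 3 Erg fl/fl MPP arrays, whereas Erg +/- HSC spread widely and overlapped Erg +/+ HSC. The MPP effect minus the HSC effect was -1.06 with a SE of 0.401, with an unadjusted p of 0.0208 from limma and an adjusted p of 1.00. A second probe set of Fbxw7 gave -0.08 for the same quantity, so the probe sets disagree. Probe sets of Ube2n and Uba1y that were not used had unadjusted p-values of 0.0085 and 0.018 from limma for it. For this difference of effects limma called 0 of 148 members, beside 0.02% of all genes, with 8 members, or 5.41%, at an unadjusted p under 0.05 against 3.88% of all genes.

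Other F-box genes with small p-values were likewise below the threshold. Fbxo32, also called atrogin-1 and known from muscle wasting, had 5.56, 6.06 and 5.61 in Erg -/- MPP, 6.00, 5.42 and 6.23 in Erg fl/fl MPP, 6.77, 6.02 and 6.05 in Erg +/- HSC, and 6.90, 6.93 and 6.52 in Erg +/+ HSC. Erg fl/fl MPP lay wholly below Erg +/+ HSC, at -0.90 with a SE of 0.261 (limma, adjusted p = 0.100). Fbxo22, which takes part in turnover of histone demethylases, had 7.07, 7.28 and 7.18 in Erg -/- MPP against 7.88, 7.81 and 7.41 in Erg fl/fl MPP, and 7.05, 7.92 and 8.05 in Erg +/- HSC against 7.06, 6.88 and 7.82 in Erg +/+ HSC. Its MPP effect minus its HSC effect was -0.94 with a SE of 0.410, uncalled. Fbxo38, a ligase part for PD-1 in T cells, had 6.96, 7.18 and 7.01 in Erg +/- HSC against 7.15, 7.77 and 7.82 in Erg +/+ HSC, overlapping, at -0.53 with a SE of 0.205.

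Among 42 genes with deubiquitinase stems limma called 0 in each of the 5 comparisons, with 2, or 4.76%, at an unadjusted p under 0.05 in each Erg comparison and 9, or 21.4%, between the controls, against 4.79%, 6.32% and 22.3% of all genes in the MPP, HSC and control comparisons. Otud7b trims K11-linked chains and restrains non-canonical NF-kappa-B signalling. Among the members' brightest probe sets it had the smallest p in the HSC comparison. It had 5.58, 5.39 and 5.72 in Erg +/- HSC against 6.00, 5.94 and 6.82 in Erg +/+ HSC. The groups did not overlap, and the difference was -0.69 with a SE of 0.217 (limma, adjusted p = 0.597). In MPP the same gene had 5.50, 5.50 and 5.64 in Erg -/- MPP against 5.77, 5.61 and 5.60 in Erg fl/fl MPP, and the MPP effect minus the HSC effect was 0.58 with a SE of 0.307. Without Erg +/+ HSC replicate 3, the array at 6.82, the HSC difference was -0.41 and the difference of effects 0.30. Usp53, known from cell junctions, had 5.80, 5.84 and 5.40 in Erg +/- HSC against 6.59, 6.59 and 5.86 in Erg +/+ HSC, without overlap, at -0.67 with a SE of 0.254. Usp8, which works on endosomes, averaged 8.82, 9.04, 8.92 and 9.06 in Erg -/- MPP, Erg fl/fl MPP, Erg +/- HSC and Erg +/+ HSC.

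In the MPP comparison, 11 of 35 genes with the Usp stem had positive differences, against 49.4% of all genes, with a median of -0.15 against -0.0040 over all genes. Usp39, a splicing factor that lost the protease residues, had 6.62, 6.87 and 6.78 in Erg -/- MPP against 7.73, 7.42 and 6.79 in Erg fl/fl MPP, overlapping, at -0.56 with a SE of 0.244, and at -0.35 without Erg fl/fl MPP replicate 1. Uchl1, a ubiquitin hydrolase best known from neurons, had 5.94, 6.49 and 7.13 in Erg -/- MPP against 5.77, 5.50 and 5.78 in Erg fl/fl MPP. Its groups did not overlap, and the difference was 0.84 with a SE of 0.323, uncalled like all members in this comparison, and 0.54 without Erg -/- MPP replicate 3. Uchl3, its relative, averaged 8.49, 8.73, 8.54 and 8.33 in Erg -/- MPP, Erg fl/fl MPP, Erg +/- HSC and Erg +/+ HSC.

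Between populations the deubiquitinases with the smallest p were Otud7a and Usp16. Usp16, which removes ubiquitin from histone H2A, had 7.76, 7.81 and 7.76 in Erg -/- MPP, 8.55, 7.88 and 7.95 in Erg fl/fl MPP, 7.50, 7.59 and 7.32 in Erg +/- HSC, and 7.63, 7.50 and 7.01 in Erg +/+ HSC. All 6 MPP arrays lay above all 6 HSC arrays, and the difference over both groups was 0.53 with a SE of 0.150 (limma, adjusted p = 0.0812). Non-overlap of all 6 against all 6 arrays occurred for 4 members, 2.7% of the list, against 2.77% of all genes. Otud7a, a relative of Otud7b, with 4.83, 5.17 and 5.39 in Erg fl/fl MPP against 4.41, 4.53 and 4.42 in Erg +/+ HSC, differed by 0.68 with a SE of 0.177 (limma, adjusted p = 0.0811), and was called without Erg fl/fl MPP replicate 1, at 0.82 (limma, adjusted p = 0.0493).

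Genes of the same pathway outside the symbol stems gave 0 calls by limma in any of the 5 comparisons, among 76 measured genes. At an unadjusted p under 0.05 there were 9, or 11.8%, in the MPP comparison against 4.79% of all genes, 3, or 3.95%, in the HSC comparison against 6.32%, and 17, or 22.4%, between the controls against 22.3%. Differences were positive for 25 of 76 in the MPP comparison, 34 in the HSC comparison and 42 between the controls. Over all genes 49.4%, 53.8% and 62.4% were positive in that order. Of the ubiquitin and ubiquitin-like precursors 5 of 11 were measured, of proteasome-associated proteins 6 of 16, of cullin partners 23 of 33, of other E3 ligases 13 of 40, of other deubiquitinases 13 of 17, and of shuttles and p97 cofactors 8 of 22. Of the anaphase-promoting complex, the E3 that ends mitosis, 8 of 14 were measured. Sumo3, a ubiquitin-like modifier, differed by 0.71 in Erg fl/fl MPP minus Erg +/+ HSC (SE 0.194, limma adjusted p = 0.0922), and Sem1, a small subunit of the 19S lid, by 0.54 (SE 0.153, limma adjusted p = 0.0945). Ublcp1, a phosphatase that acts on the proteasome, had the smallest p of these lists in the MPP comparison, at 2.83 in Erg -/- MPP minus Erg fl/fl MPP (SE 0.699, limma adjusted p = 0.455), and differed by 1.90 in Erg +/- HSC minus Erg +/+ HSC (limma, adjusted p = 0.740).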

How the data were processed

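Per the labels' protocols, each sample's 20 ng of total RNA was amplified, and 2.5 µg of cDNA was labelled. The authors deposited log2 values per probe set, made with RMA in the affy package per the submitters' processing notes, which give no version. RMA is meant to set arrays to a common distribution, so that a difference is relative to most other probe sets, and it compresses the folds of dim ones. The deposited values still differed in spread, with interquartile ranges from 2.505 to 2.989. In Erg fl/fl MPP minus Erg +/+ HSC the median difference over all genes was 0.122, and 62.4% of genes had positive differences. The main fit did not correct for this. Of 18719 probe sets, 10657 have 1 gene symbol, 523 several and 7539 none. The brightest single-symbol probe set stood for each of 9984 genes.

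Group means over the 12 arrays were fitted in 1 model with limma 3.58.1 in R 4.3.3, with 8 residual and 4.35 prior degrees of freedom, no filter on dim genes, two-sided tests and Benjamini-Hochberg adjustment over 9984 genes at 0.05. Intervals are moderated 95% intervals. The fit was tested on simulated data. Arrays carry no read depth, so their number limits the precision.

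Members, gene lists and the naming rule were chosen with earlier results of these data known. Named are called members, otherwise the 3 smallest p-values per direction and comparison, the immunoproteasome genes, the brightest member of each role class as a level, and the smallest-p gene of other lists. Alternatives were a replicate block, dim-gene filters, other probe set choices, normalisation, centring, array weights, a trend, fewer arrays and each array left out. Over all genes same-numbered arrays did not deviate together (correlations from -0.0852 to 0.104), so numbers were not taken as pairs. The mean of 6 cell cycle genes fell with number in both HSC groups, at 6.72, 6.11 and 5.75 in Erg +/- HSC and 6.51, 6.04 and 5.62 in Erg +/+ HSC. It was 6.71, 6.61 and 6.61 in Erg -/- MPP and 7.05, 6.78 and 7.20 in Erg fl/fl MPP. A shared replicate structure in such genes was not tested. Role classes follow symbol stems. Promoter windows are those of RefSeq in GRCm38.p6.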

Additional observations from a re-analysis of the deposited data

How the results depend on the processing

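Over all alternatives, 0 members were called in Erg -/- MPP minus Erg fl/fl MPP, in Erg +/- HSC minus Erg +/+ HSC and for the difference of effects. In Erg fl/fl MPP minus Erg +/+ HSC, where 1 member was called, the count was 3 with the replicate block or repeated quantile normalisation, 2 with the mean of probe sets or median centring, 0 with only the arrays compared, with all deposited probe sets or without the 2 arrays of low weight, and 0 to 2 with single arrays left out. For both MPP groups minus both HSC groups, where 0 were called, it was 1 with the block, the filter at the 50th percentile, median centring or array weights, 2 with quantile normalisation and 0 to 3 with single arrays left out. The members gained in 1 or more of these settings were Ube2q2, Ube2v2, Usp16 and Otud7a, and over both populations also Fbxl12 and Psmg2. Replicate numbers were not taken as pairs, and the block changed no call in the Erg comparisons.

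With the filter at the 50th percentile, medians of members relative to all genes were 0.04703 in HSC, 0.03429 between controls, 0.02744 between populations and -0.05823 for the difference of effects, and subunits 0.2078 between populations. Without the 2 arrays of low weight, members had -0.1545 between controls and subunits 0.02219 for the difference of effects. With single arrays left out, members ranged from -0.1232 to 0.01407 in MPP and from -0.1112 to 0.06135 for the difference of effects, and subunits from -0.05258 to 0.2127 between controls. The causes were not tested.

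The alternatives covered 50 named values, namely the called and smallest-p members and the immunoproteasome genes, and not the members given as levels or chosen after their values were seen. Among these 50, the signs that turned were all of uncalled differences. Psmb8 for the difference of effects was 0.006086 without the 2 arrays of low weight and -0.2971 to 0.02107 with single arrays left out, and Psmb8 in HSC was -0.243 to 0.07428 with single arrays left out. Psmb9 in HSC was -0.04313 under quantile normalisation and -0.1 to 0.1041 with single arrays left out. Psmb9 between controls was -0.0149 under quantile normalisation, -0.07261 under centring, -0.03392 with array weights, -0.1078 without the 2 arrays of low weight and -0.1028 to 0.134 with single arrays left out. Psme1 in HSC was -0.01117 under quantile normalisation and -0.07456 to 0.1305 with single arrays left out. Of the repeats of these 50 values under the alternatives other than leaving out an array, 497 kept direction and side of the threshold, 3 lost and 11 gained a call and 7 changed sign. With an array left out these counts were 400, 4, 7 and 9.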

Other observations

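The E2 enzymes that build chains for the anaphase-promoting complex, chosen here after their values were seen, had opposite signs between the populations. Ube2c, which starts the chains, had 7.19, 7.67 and 7.09 in Erg -/- MPP, 7.42, 7.46 and 7.67 in Erg fl/fl MPP, 7.57, 6.49 and 6.17 in Erg +/- HSC, and 6.14, 7.11 and 6.50 in Erg +/+ HSC. All Erg fl/fl MPP arrays lay above all Erg +/+ HSC arrays, at 0.94 with a SE of 0.337, and the gene was not called (limma, adjusted p = 0.147). Ube2s, which extends the chains, averaged 8.37 ± 0.36 in Erg fl/fl MPP and 9.18 ± 0.16 in Erg +/+ HSC (SD, n = 3 each), a difference of -0.81 with a SE of 0.365 that was not called either (limma, adjusted p = 0.217). Its second probe set gave -1.72 for the same comparison. A list of 6 measured cell cycle genes had a mean level of 6.61 to 6.71 in Erg -/- MPP, 6.78 to 7.20 in Erg fl/fl MPP, 5.75 to 6.72 in Erg +/- HSC and 5.62 to 6.51 in Erg +/+ HSC, and its part in either value was not tested.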
